A study of Homo sapiens with 4 samples.

Results

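The 43 genes described here encode the machinery that makes ribosomes in the nucleolus, namely the proteins of small nucleolar ribonucleoproteins (snoRNPs), factors that process the small and the large ribosomal subunit, and the RNA polymerase I apparatus. They were taken from a list of gene symbols by role. The rule uses no measured value, but the list was drawn up with earlier results of these data known. All 43 were found among the 60558 Ensembl gene identifiers in the files. RNA sequencing had been run on A549 and HCC827, established human lines of lung adenocarcinoma (LAD). Each line carried either myr-AKT1, an AKT1 kinase with a myristoylation signal that anchors it to the membrane and keeps it constitutively active, or the vector alone. The study used these cells to look for transcripts that respond to active AKT, and whether each transduced line was a pool or a clone is not given in the sources used here. Each of the 4 combinations of line and construct was sequenced as 1 library.

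Ribosome production begins when RNA polymerase I, with the factors UBTF and RRN3, copies the ribosomal DNA into a long precursor RNA. Box C/D and box H/ACA snoRNPs modify that precursor and guide some of its first cuts, and large assemblies then trim and fold it into the small and the large subunit. Growing cells invest heavily in this pathway, and kinases downstream of growth factors, AKT among them, are known to act on it at several levels.

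Values are given as normalized counts, which are reads per gene divided by 1 size factor per library as the authors scaled them within a cell line, and changes as the log2 ratio of myr-AKT1 over vector cells without a pseudocount. Ranges in parentheses are 95% Clopper-Pearson intervals, computed from the reads behind each pair of values, and hold counting error alone. Recovered reads ranged from 16322183 to 33530317 per library. The overexpressed AKT1 was at 4243 in A549-vector and 6297 in A549-myr-AKT1 cells, and at 2175 and 4805 in HCC827 cells, and reads of the construct and of the cell's own gene could not be told apart. The epithelial markers EPCAM, KRT8, KRT18 and CDH1 had reads in all 4 libraries, CDKN2A, which A549 cells have lost, had 0 reads in both A549 libraries, and the T cell marker CD3E had 0 reads throughout. Some markers differed between the conditions. KRT8 and KRT18 were at log2 fold changes of -0.36 and -0.38 in A549 and -1.81 and -1.75 in HCC827 cells. CDH1 went the other way, at 1.39 in A549 and 0.31 in HCC827 cells, and EPCAM was at 0.59 and -0.22. The fibroblast marker COL1A1 had 76.8 normalized counts in A549-vector, 765 in A549-myr-AKT1, 44.5 in HCC827-vector and 179 in HCC827-myr-AKT1 cells, and rose in the fit over both lines (limma, adjusted p = 0.0381). The endothelial markers PECAM1 (11.4, 69.9, 62.0 and 106) and CDH5 (0.873, 67.6, 6.36 and 13.8) had higher values in myr-AKT1 cells. For CDH5 in HCC827 cells, with 8 reads in vector and 11 in myr-AKT1 cells, the counting interval included 0 (-0.33 to 2.64). Neither passed in the fit (limma, adjusted p = 0.242 for PECAM1 and 0.156 for CDH5). The other leukocyte and fibroblast markers had at most 21.8 in any library. In A549 cells CD68, PTPRC and DCN had 2, 1 and 0 reads with the vector and 19, 7 and 13 with myr-AKT1. PDGFRB went the other way there, with 6 and 4 reads. In HCC827 cells none of these markers had higher normalized counts with myr-AKT1. EGFR, which is amplified in HCC827 cells, was at log2 fold changes of 0.17 in A549 and -1.17 in HCC827 cells. The part of these differences in the values of the 43 genes was not tested.

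All 43 genes had lower normalized counts in myr-AKT1 than in vector cells of both lines, with NOP10 in HCC827 cells the exception when libraries were scaled to total reads. Their median log2 fold change was -1.04 in A549 and -0.91 in HCC827 cells, which is 2.06-fold and 1.87-fold lower. Over all genes that averaged at least 50 normalized counts in a line the medians were -0.07 (n = 13965) and -0.06 (n = 13096). Reads of the 43 genes together summed to 7331 CPM (counts scaled to the library total) in A549-vector and 3629 CPM in A549-myr-AKT1 cells, and to 6722 and 3415 CPM in HCC827 cells. In bulk RNA, fewer cells that express a gene and less of its RNA per cell cannot be told apart.

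A fold change below 0 was found for 43 of 43 genes in each line, against 54.4% of all genes in A549 and 53.8% in HCC827 cells, and for 43 of 43 in both lines at once, against 39.8%. The counting interval lay wholly below 0 in both lines for 41 of the 43, all but GAR1 and NOP10, against 29.5% of all genes. A log2 fold change below -1 was reached by 24 of the 43 in A549 (background 7.90%) and by 16 in HCC827 cells (background 10.3%). In both lines together 14 of the 43 were below -1, against 4.10% of all genes. These counts go by the fold change itself. For some of the genes counted the counting interval reached above -1, such as LAS1L in A549 cells (-1.13 to -0.96) and RRP9 in HCC827 cells (-1.37 to -0.86). No gene of the list was above 1 in either line, where the background was 11.2% in A549 and 10.2% in HCC827 cells.

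**Figure D1:**
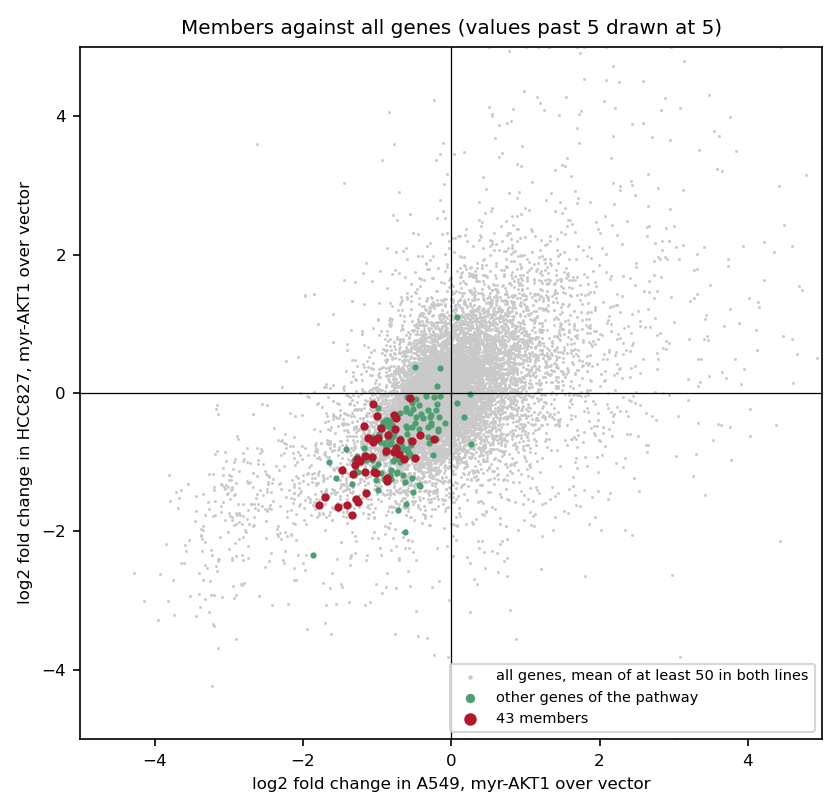
Log2 fold change of myr-AKT1 over vector cells in A549 (x axis) and HCC827 (y axis), 1 point per gene that averaged at least 50 normalized counts in both lines. All 43 members (red) lie in the lower left part of the plot, below 0 on both axes, where 39.8% of all genes lie.

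With 1 library per condition, no difference within a line has a replicate check. The only repeat of the contrast is the second cell line, so a fit was made over all 4 libraries with limma, on log2 values after a pseudocount of 1 and with the line as a blocking term, which leaves 1 residual degree of freedom. At a Benjamini-Hochberg adjusted p under 0.05 over 19314 genes, 10 of the 43 fell in myr-AKT1 cells, where 1.73% of all genes fell, and 0 rose, where 1.29% of all genes rose. The 10 were NOP56, NOP58, FBL, DKC1, NCL, TCOF1, UTP20, BOP1, RRS1 and EBNA1BP2. An unadjusted p under 0.05 was reached by 34 of the 43 in the lower direction, against 9.24% of all genes, and by 0 in the higher, against 9.17%. How many passed depended on the tool. The quasi-likelihood test of edgeR, run on whole reads, called 5 of the 43 lower (NOP56, NOP58, TCOF1, UTP20 and BOP1) and 0 higher. The calls of FBL, DKC1, NCL, RRS1 and EBNA1BP2 were lost there, at adjusted p from 0.0516 (RRS1) to 0.0792 (DKC1). With DESeq2's Wald test 18 were called lower and 0 higher, and 0 were called by limma with a pseudocount of 0.1.

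**Figure D2:**
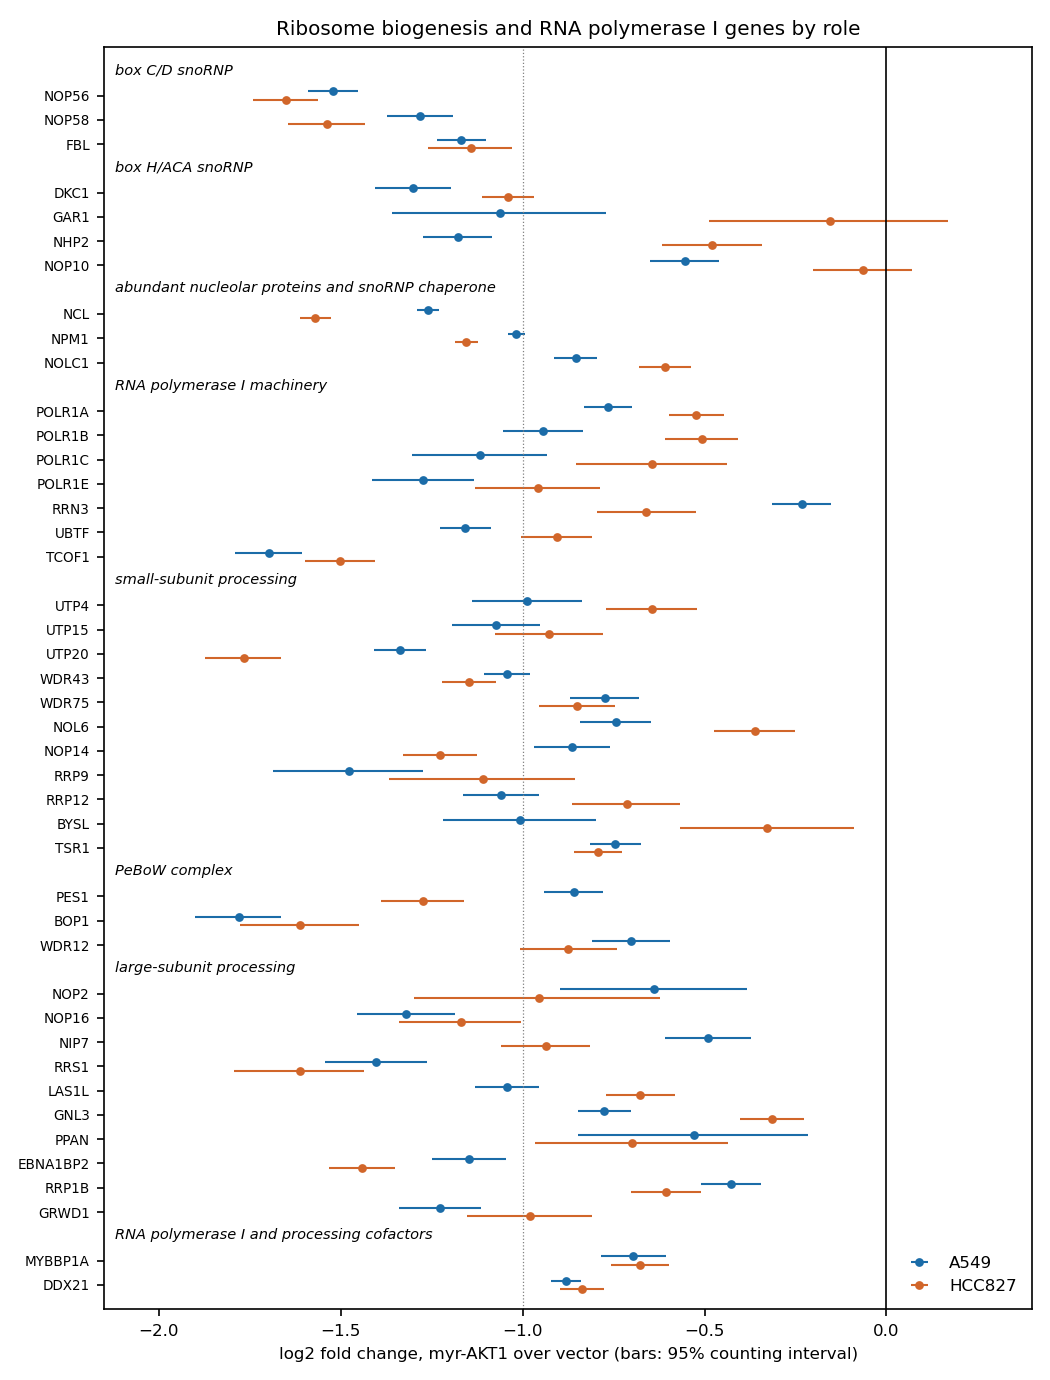
Log2 fold change of each of the 43 genes in A549 (blue) and HCC827 (orange) cells, grouped by role, with 95% counting intervals as bars. Points left of the dotted line are below -1, which holds for 24 genes in A549 and 16 in HCC827 cells, and the intervals of GAR1 and NOP10 in HCC827 cells include 0.

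Sequences are shown first where the list shares a feature that its choice did not use. The hexamer CACGTG, an E-box that reads the same on both strands, was searched in promoters of 300 bases from RefSeq (GRCh38.p14), 250 before and 50 after each start site. Of the 43 genes, 35 had a promoter in the table, and NOLC1, TCOF1, BOP1, NOP58, POLR1E, RRP1B, RRP12 and RRS1 did not. The hexamer was present in 16 of the 35 (45.7%), and in all 16 a copy began within 50 bases of the start site. Over all genes of the table the share with a copy that near was 3.51% (n = 27305), with a copy anywhere in the promoter 8.77%, and over genes averaging at least 50 normalized counts in both lines 5.37% and 12.7% (n = 9485). In 5 of the 16 the nearby copy began before the start site and in 11 at or after it, from -31 to 43 bases.

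The windows below are those of genes with full values in the text whose copy begins before the start site, together with FBL, added after its values were seen, as an example of a copy just after it. They are written 5′ to 3′ along the gene, with the hexamer in capitals. They lie at chr3:51941892-51941921 (minus strand) for RRP9, chr12:101280083-101280112 (plus) for UTP20, chr15:34343130-34343159 (minus) for NOP10, chr1:43172790-43172819 (minus) for EBNA1BP2 and chr19:39846356-39846385 (minus) for FBL. The copy begins at -5 in RRP9, -10 in UTP20, -11 in NOP10, -237 in EBNA1BP2 and 7 in FBL, relative to the start site. For EBNA1BP2 the copy shown is not the nearby one counted above, which begins at 43 from another start site of the gene.
RRP9: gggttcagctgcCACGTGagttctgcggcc
UTP20: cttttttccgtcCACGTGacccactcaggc
NOP10: gaaattgacgaaCACGTGacgcggtcgggc
EBNA1BP2: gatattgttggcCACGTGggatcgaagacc
FBL: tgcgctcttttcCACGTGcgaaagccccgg

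A match is a description of the letters and not evidence of a bound factor. Members with and without the hexamer near the start site had similar median changes. The 16 with it were at a median of -0.93 (log2) in A549 and -0.90 in HCC827 cells, and the 19 whose promoter lacked it had -1.04 and -0.87. UTP20 and NOP10, both with a copy near -10, were among the most and the least changed genes of the list in HCC827 cells. A nearby copy was also found in 22 of 110 other genes of the pathway (20.0%), in 2 of 47 genes of cytosolic ribosomal proteins (4.26%) and in 1 of 15 proliferation genes (6.67%).

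The 3 box C/D snoRNP core genes of the list were lower in both lines. SNU13, a further core protein of the particle that was counted with the other pathway genes, was at log2 fold changes of -0.92 in A549 and -0.42 in HCC827 cells. NOP56 (ENSG00000101361, chr20:2652593-2658393, plus strand), a scaffold protein of the particle, had 7232 normalized counts in A549-vector, 2518 in A549-myr-AKT1, 4887 in HCC827-vector and 1555 in HCC827-myr-AKT1 cells. Its partner NOP58 (ENSG00000055044, chr2:202265736-202303661, plus strand) had 3621, 1489, 3274 and 1127 in the same order. FBL (ENSG00000105202, chr19:39834458-39846379, minus strand), fibrillarin, the methyltransferase that modifies the ribose of the precursor RNA, had 6041, 2688, 2174 and 984. All 3 were more than 2-fold lower in the myr-AKT1 library of each line. The log2 fold changes were -1.52 (-1.59 to -1.45) and -1.65 (-1.74 to -1.56) for NOP56 in A549 and HCC827 cells. They were -1.28 and -1.54 for NOP58, and -1.17 and -1.14 for FBL. All 3 fell in the fit over both lines, NOP56 by 1.59 ± 0.24 (log2, SE, adjusted p = 0.0218), NOP58 by 1.41 ± 0.25 (adjusted p = 0.0301) and FBL by 1.16 ± 0.24, where the adjusted p of 0.0497 was close to the threshold and was 0.0783 with edgeR.

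The box H/ACA core was less uniform than the 3 box C/D genes of the list. The largest difference between the lines among the 43 genes, that of GAR1, was found here. DKC1, dyskerin, the pseudouridine synthase of the particle, had 2748 normalized counts in A549-vector, 1115 in A549-myr-AKT1, 5297 in HCC827-vector and 2576 in HCC827-myr-AKT1 cells. NHP2, an RNA-binding subunit, had 3156, 1394, 1098 and 788, and GAR1, which helps release the modified RNA, had 318, 152, 172 and 155. NOP10, the smallest subunit, had 2297, 1564, 946 and 903. All 4 were lower in A549-myr-AKT1 than in A549-vector cells by more than counting error, with log2 fold changes of -1.30 (DKC1), -1.18 (NHP2), -1.06 (GAR1) and -0.55 (NOP10). In HCC827 cells DKC1 was at -1.04 (-1.11 to -0.97) and NHP2 at -0.48 (-0.62 to -0.34), whereas the intervals of GAR1 (-0.16, -0.49 to 0.17) and NOP10 (-0.07, -0.20 to 0.07) included 0. The change was smaller in HCC827 cells for each of the 4, by 0.26 (0.13 to 0.39) for DKC1, 0.70 (0.54 to 0.87) for NHP2, 0.91 (0.48 to 1.33) for GAR1 and 0.49 (0.32 to 0.65) for NOP10, on the log2 scale. These intervals cover counting error, and the difference between lines was not tested over cultures. DKC1 alone of the 4 passed in the fit (fell by 1.17 ± 0.24, adjusted p = 0.0499), again close to the threshold, and it did not pass with edgeR (adjusted p = 0.0792).

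NCL and NPM1 were the genes of the list with the most reads. NCL, nucleolin, which binds the precursor RNA and nucleolar chromatin, had 32684 normalized counts in A549-vector, 13650 in A549-myr-AKT1, 21126 in HCC827-vector and 7117 in HCC827-myr-AKT1 cells. NPM1, nucleophosmin, an abundant nucleolar chaperone, had 49859, 24626, 28979 and 13006. NCL was at a log2 fold change of -1.26 in A549 and -1.57 in HCC827 cells and fell in the fit (1.41 ± 0.26 lower, adjusted p = 0.0346, with edgeR 0.0597), while NPM1 was at -1.02 and -1.16 and did not pass (adjusted p = 0.0848). NOLC1, a chaperone of snoRNPs, was at -0.85 and -0.61. The 49 annotated NPM1 pseudogenes, which could take reads of the gene, held from 43 to 295 reads per library, against 10336 to 57095 for NPM1 itself.

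The RNA polymerase I genes were all lower, by more in A549 cells for 6 of the 7. POLR1A, the largest catalytic subunit, had 5363 normalized counts in A549-vector, 3156 in A549-myr-AKT1, 3735 in HCC827-vector and 2600 in HCC827-myr-AKT1 cells. POLR1B, the other catalytic subunit, had 2061, 1071, 2058 and 1447. Both catalytic subunits had like changes, at log2 fold changes of -0.76 and -0.52 for POLR1A and -0.94 and -0.51 for POLR1B. POLR1C, which the enzyme shares with RNA polymerase III, had 803, 370, 529 and 338, and POLR1E, a subunit with a role in initiation and elongation, had 1523, 630, 905 and 466. Their changes were -1.12 and -0.64 for POLR1C and -1.27 and -0.96 for POLR1E in A549 and HCC827 cells.

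Among the factors that bring the enzyme to ribosomal DNA, the changes were spread widely. TCOF1 (ENSG00000070814, chr5:150357629-150400308, plus strand), treacle, which links RNA polymerase I transcription to processing and is mutated in Treacher Collins syndrome, had 4348 normalized counts in A549-vector, 1340 in A549-myr-AKT1, 3804 in HCC827-vector and 1343 in HCC827-myr-AKT1 cells. UBTF, the architectural factor on ribosomal DNA, had 5621, 2519, 2670 and 1424, and RRN3, which couples the polymerase to its promoter, had 2776, 2361, 1229 and 778. TCOF1 had the largest change of the 7 in both lines, and RRN3 the smallest of all 43 in A549 cells. The log2 fold changes were -1.70 (-1.79 to -1.61) and -1.50 (-1.60 to -1.41) for TCOF1, -1.16 and -0.91 for UBTF, and -0.23 (-0.31 to -0.15) and -0.66 (-0.80 to -0.52) for RRN3. TCOF1 was the one gene of the 7 that fell in the fit (1.60 ± 0.24 lower, adjusted p = 0.0227). The 4 RRN3 pseudogenes held 572 reads in A549-vector, 522 in A549-myr-AKT1, 184 in HCC827-vector and 84 in HCC827-myr-AKT1 cells, against 3179, 2062, 1546 and 618 for RRN3, so some of its reads are uncertain.

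**Figure D3:**
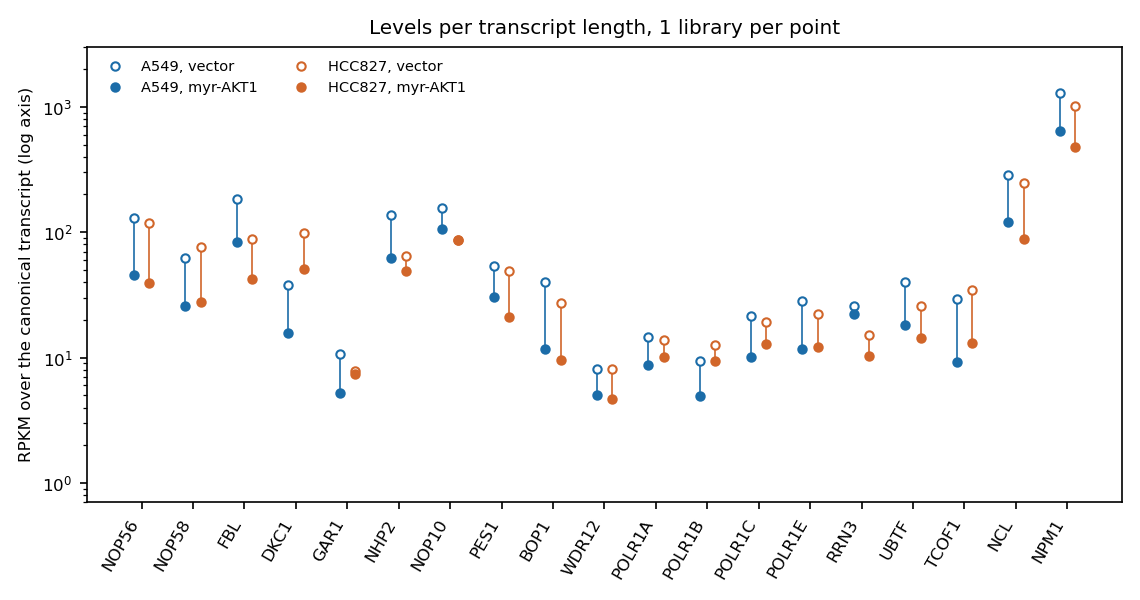
Level per transcript length (RPKM over the canonical transcript, log axis) of 19 core genes in vector (open) and myr-AKT1 (filled) cells of A549 (blue) and HCC827 (orange), 1 library per point. The filled point lies below the open one in every pair but NOP10 in HCC827 cells, where 86.8 and 85.9 nearly coincide, and NPM1 has the highest level in each library.

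Levels per transcript length allow genes of 1 complex to be set side by side, here as RPKM, the recovered reads scaled to the length of the canonical transcript and to the library total. In the box C/D core of A549-vector cells FBL had 183, NOP56 129 and NOP58 62.0, and in A549-myr-AKT1 cells they had 82.8, 45.6 and 25.9, so the order was kept. In HCC827-vector cells the order was NOP56 (118), FBL (89.0) and NOP58 (75.7), and in HCC827-myr-AKT1 cells FBL (42.6), NOP56 (39.6) and NOP58 (27.5). Within the H/ACA core GAR1 was the lowest in every library, at 10.7 in A549-vector, 5.20 in A549-myr-AKT1, 7.83 in HCC827-vector and 7.42 in HCC827-myr-AKT1 cells. DKC1 was lower in A549 (38.0 and 15.7 in vector and myr-AKT1 cells) than in HCC827 cells (98.8 and 50.8). Over the 43 genes the median level was 29.5 in A549-vector, 14.5 in A549-myr-AKT1, 34.9 in HCC827-vector and 17.1 in HCC827-myr-AKT1 cells.

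Of the 11 small-subunit factors, 6 were below -1 in A549 and 4 in HCC827 cells. UTP20 (ENSG00000120800, chr12:101280105-101386618, plus strand), a large scaffold of the small-subunit processome, had 5967 normalized counts in A549-vector, 2362 in A549-myr-AKT1, 3835 in HCC827-vector and 1126 in HCC827-myr-AKT1 cells. Its log2 fold change of -1.77 (-1.87 to -1.66) in HCC827 cells was the lowest of the 43 there, with -1.34 (-1.41 to -1.27) in A549 cells, and it fell in the fit (1.55 ± 0.25 lower, adjusted p = 0.0257). RRP9, a protein of the snoRNP that guides the first cuts of the precursor, had 795, 285, 451 and 209 in the same order of libraries. It was at -1.48 (-1.69 to -1.27) and -1.11 (-1.37 to -0.86), and did not pass in the fit (adjusted p = 0.0962).

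WDR43 and UTP15 belong to the group of proteins that joins the precursor RNA while it is still being transcribed. WDR43 had 6618 normalized counts in A549-vector, 3213 in A549-myr-AKT1, 5314 in HCC827-vector and 2398 in HCC827-myr-AKT1 cells, at -1.04 and -1.15. UTP15 had 1812, 861, 1183 and 622, at -1.07 and -0.93. WDR43 was therefore past -1 in both lines and UTP15 in A549 cells. In A549 cells both genes were past it by less than their counting error. The other 2 of that group among the 43 were at -0.99 and -0.65 (UTP4) and -0.77 and -0.85 (WDR75). HEATR1 and NOL11, of the same group but counted with the other pathway genes, were at -1.15 and -0.97 (HEATR1) and -1.34 and -1.31 (NOL11). NOP14, another processome protein, had 2245, 1233, 2921 and 1248, with the larger change in HCC827 cells (-0.86 and -1.23).

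The other small-subunit factors were RRP12, BYSL, NOL6 and TSR1, and all 4 were above -1 in HCC827 cells. RRP12, which takes part in export of the precursor particle, had 2465 normalized counts in A549-vector, 1183 in A549-myr-AKT1, 1063 in HCC827-vector and 648 in HCC827-myr-AKT1 cells, at -1.06 and -0.71. BYSL, bystin, had 601, 299, 347 and 277, at -1.01 (-1.22 to -0.80) and -0.33 (-0.57 to -0.09). RRP12 (-1.16 to -0.96) and BYSL were past -1 in A549 cells by less than their counting error. NOL6 was at -0.74 and -0.36, and TSR1, which is bound to late precursors of the small subunit, at -0.75 and -0.79.

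The PeBoW complex, in which PES1, BOP1 and WDR12 act together on the large subunit, was uneven. BOP1 had 2834 normalized counts in A549-vector, 824 in A549-myr-AKT1, 1446 in HCC827-vector and 473 in HCC827-myr-AKT1 cells. PES1 had 3598, 1982, 2394 and 989, and WDR12 had 1917, 1178, 1419 and 774. BOP1 was thus lower in myr-AKT1 cells by more than its partners in both lines. Its log2 fold change of -1.78 (-1.90 to -1.66) in A549 cells was the lowest of the 43 there, and it was -1.61 (-1.78 to -1.45) in HCC827 cells. PES1 was at -0.86 (-0.94 to -0.78) and -1.28 (-1.39 to -1.16), and WDR12 at -0.70 (-0.81 to -0.59) and -0.87 (-1.01 to -0.74). BOP1 alone of the 3 passed in the fit (fell by 1.70 ± 0.26, adjusted p = 0.0230), with adjusted p = 0.0743 for PES1 and 0.161 for WDR12.

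Of the 10 further large-subunit factors, 5 were below -1 in A549 and 3 in HCC827 cells. RRS1, which helps bring the small ribosomal RNA of the large subunit into the particle, had 1623 normalized counts in A549-vector, 614 in A549-myr-AKT1, 1213 in HCC827-vector and 396 in HCC827-myr-AKT1 cells. EBNA1BP2, another nucleolar assembly factor, had 2721, 1229, 4199 and 1545. Both were lower by more in HCC827 cells, at -1.40 and -1.61 for RRS1 and at -1.15 and -1.44 for EBNA1BP2, and the counting interval of that difference included 0 for RRS1 only. Both fell in the fit, RRS1 by 1.51 ± 0.28 (adjusted p = 0.0345) and EBNA1BP2 by 1.29 ± 0.25 (adjusted p = 0.0391), and neither passed with edgeR (adjusted p = 0.0516 and 0.0608).

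NOP16 had 1676 normalized counts in A549-vector, 671 in A549-myr-AKT1, 1062 in HCC827-vector and 472 in HCC827-myr-AKT1 cells, at -1.32 and -1.17. GRWD1, a chaperone of a large-subunit ribosomal protein, had 2290, 978, 913 and 463, at -1.23 and -0.98. LAS1L, which cuts the spacer between the large-subunit RNAs, had 3427, 1664, 2554 and 1598, at -1.04 and -0.68. None of these 3 passed in the fit, where NOP16 had the lowest adjusted p, at 0.0594.

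The large-subunit factors with the smallest change were RRP1B and NIP7 in A549 cells, and GNL3 and RRP1B in HCC827 cells. RRP1B, a nucleolar protein of late processing, had 2865 normalized counts in A549-vector, 2131 in A549-myr-AKT1, 2387 in HCC827-vector and 1569 in HCC827-myr-AKT1 cells, at -0.43 and -0.61. NIP7 had 1447, 1029, 1763 and 921, at -0.49 and -0.94, and GNL3, nucleostemin, a nucleolar GTPase, had 4379, 2557, 2476 and 1991, at -0.78 and -0.31. The difference between lines was beyond counting error for all 3, with NIP7 lower by a further 0.45 in HCC827 cells and GNL3 by 0.46 less. NOP2, an RNA methyltransferase, was at -0.64 and -0.96, and PPAN at -0.53 and -0.70. NOP2 and PPAN shared 54.4% and 49.2% of their exonic bases with an overlapping gene on the same strand, and their values are uncertain for that reason, as RRS1 is for 11.3%. MYBBP1A, a nucleolar regulator of RNA polymerase I, was at -0.70 and -0.68, and DDX21, an RNA helicase that acts in both transcription and processing, at -0.88 and -0.84.

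Of the 43 genes, 17 were not below -1 in either line, and none of these was above -0.23 in A549 or above -0.07 in HCC827 cells. Comparing the lines gene by gene, 25 changed less in HCC827 and 18 more. The counting interval of the difference lay above 0 for 19 genes, below 0 for 13 and included 0 for 11. The shares of all genes with such differences were not counted, so these numbers cannot be set against a background. In 7 genes (NHP2, TSR1, NOP14, NOP16, NIP7, POLR1C and EBNA1BP2) more than 10% of exonic bases overlapped a gene on the opposite strand. The protocol was strand-specific, but the strand setting of the read counting is not given in the sources used here.

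Several of the genes carry snoRNAs in their introns, so that 1 transcript gives both a protein of the pathway and guide RNAs. Annotation placed 28 snoRNAs, counting the scaRNA in POLR1C, in 9 of the 43 genes, and 9 of the 28 had no reads in any library. The others together had 243 reads in A549-vector, 113 in A549-myr-AKT1, 251 in HCC827-vector and 72 in HCC827-myr-AKT1 cells. The log2 fold change of that sum was -0.71 (-1.05 to -0.39) in A549 and -1.14 (-1.54 to -0.76) in HCC827 cells, and single hosts differed. The 4 snoRNAs in NOP58 had 82, 26, 79 and 23 reads, and the 3 in NCL had 45, 7, 46 and 16. The 6 in GNL3 had 43, 35, 39 and 18, with intervals that included 0 in both lines (0.09, -0.59 to 0.77, and -0.45, -1.35 to 0.39). The 3 in WDR43 had 35, 29, 53 and 12, at 0.12 (-0.64 to 0.87) in A549 cells, where the host was at -1.04, and at -1.48 (-2.52 to -0.56) in HCC827 cells. The 2 in PPAN had 6 reads in A549-myr-AKT1 and 0 in the other libraries. Libraries of this kind hold few RNAs as short as these, and whether the reads came from mature snoRNAs or from unspliced host RNA was not tested. Some snoRNAs without reads, such as SNORD86 in NOP56, lie on annotated exon bases of the host. SNORD20 in NCL, which had reads in every library, does so too. Whether reads went uncounted because of that overlap was not tested.

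SNORD11, inside NOP58 at chr2:202293051-202293134 (plus strand), and SNORD20, inside NCL at chr2:231456444-231456523 (minus strand), are shown from GENCODE transcripts (GRCh38) as the guide RNAs that lie in the genes for a core protein and for nucleolin. The capitals mark box C (TGATGA) and box D (CTGA), the elements that the box C/D particle assembles on.
SNORD11: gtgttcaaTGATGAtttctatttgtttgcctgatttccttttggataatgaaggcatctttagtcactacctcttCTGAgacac
SNORD20: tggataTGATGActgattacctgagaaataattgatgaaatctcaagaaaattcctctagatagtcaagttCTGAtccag

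A further 127 genes of the same pathway were counted with the same rules, and 126 of them averaged at least 50 normalized counts in both lines. Of the 126, 118 were lower in myr-AKT1 cells of both lines (all genes 39.8%) and 1 was higher in both. The medians were -0.68 in A549 and -0.66 in HCC827 cells. A log2 fold change below -1 in both lines was found for 8 (all genes 4.10%), and 3 of the 126 fell in the fit while 0 rose (all genes 1.73% and 1.29%). The counts of 8 and 3 were close to these backgrounds. These 3 were POLR1G, NOL11 and MRTO4. POLR1G, the subunit that pairs with POLR1E in RNA polymerase I, had 1326 normalized counts in A549-vector, 365 in A549-myr-AKT1, 714 in HCC827-vector and 141 in HCC827-myr-AKT1 cells. Its log2 fold changes of -1.86 (-2.04 to -1.69) and -2.34 (-2.64 to -2.06) were below those of all 43 genes in the respective line. By the mean of both lines MRTO4, a factor that leaves the large subunit late in assembly, was next, at -1.56 and -1.22.

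By the mean of both lines, the highest of the 126 were BAZ2A and NOP53. BAZ2A, a subunit of the complex that silences ribosomal DNA copies, had 3173 normalized counts in A549-vector, 3340 in A549-myr-AKT1, 2998 in HCC827-vector and 6419 in HCC827-myr-AKT1 cells. It was the 1 gene that was higher in both lines, at 0.07 (0.00 to 0.14) and 1.10 (1.04 to 1.16), and it did not pass in the fit (adjusted p = 0.354). NOP53, a large-subunit factor, was at 0.25 and -0.02. By role, the medians of the other pathway genes in A549 and HCC827 cells were -0.49 and -0.35 for RNA polymerase I, -0.79 and -0.69 for the small subunit, -0.69 and -0.72 for the large subunit, -0.66 and -0.61 for snoRNP assembly and -0.68 and -0.71 for the exosome.

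**Figure D4:**
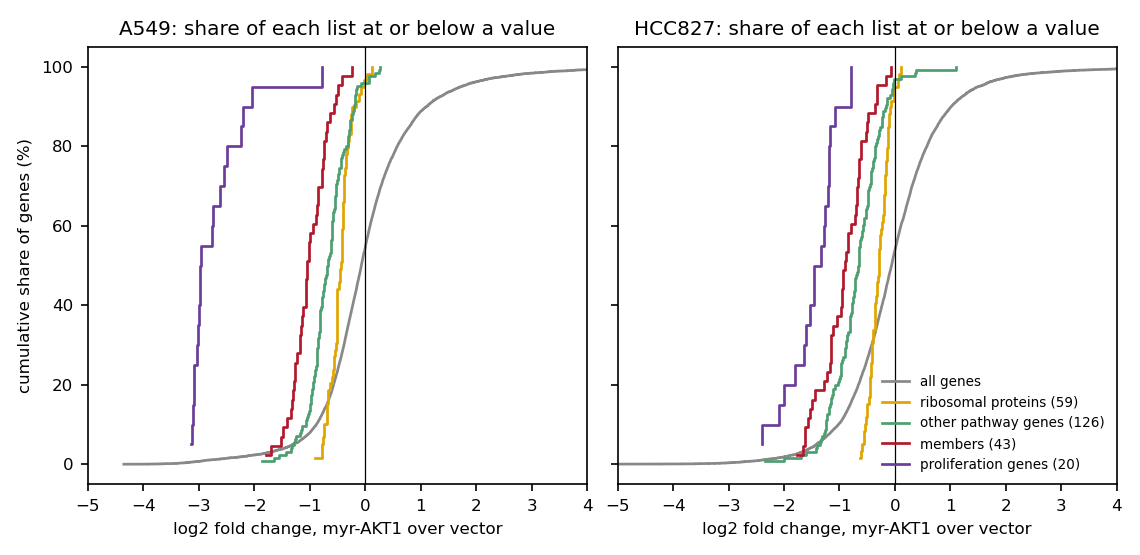
Cumulative share of genes (y axis, %) at or below a log2 fold change (x axis) in A549 (left) and HCC827 (right), for the 43 members, 126 other pathway genes, 59 genes of cytosolic ribosomal proteins, 20 proliferation genes and all genes averaging at least 50 normalized counts. The curve of the members lies left of those of the other pathway genes and the ribosomal proteins over most of its length and right of that of the proliferation genes, with medians of -1.04 in A549 and -0.91 in HCC827 cells.

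The genes of the ribosome's own proteins had smaller median changes than the genes that assemble it. Of 59 cytosolic ribosomal protein genes, 54 were lower in both lines (all genes 39.8%), with medians of -0.44 in A549 and -0.29 in HCC827 cells. In either line 0 were below -1 (all genes 7.90% in A549 and 10.3% in HCC827 cells). In the limma fit 0 passed (all genes 1.73% lower and 1.29% higher). An unadjusted p under 0.05 in the lower direction was reached there by 4 (all genes 9.24%). Genes of DNA replication and mitosis had larger median changes. All 20 proliferation genes were lower in both lines, with medians of -2.97 and -1.39. Of these, 17 were below -1 in both (all genes 4.10%) and 16 fell in the fit (all genes 1.73%). The proliferation genes thus went the same way as the ribosome biogenesis genes in the same libraries, and their part in the result was not tested.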

How the data were processed

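The authors sequenced 1 strand-specific library per condition. The labels describe removal of ribosomal RNA, the Methods selection of polyadenylated RNA. The authors mapped reads to hg38 with Bowtie2 and counted them with HTSeq. The Methods name RPKM, but the deposited signal is a read count divided by a size factor. The plan foresaw edgeR if the files held counts. Because the values are normalized, the reported fit is limma with a pseudocount of 1, and edgeR and DESeq2 were run on the recovered reads as alternatives. Dividing by the worth of 1 read gave whole reads (tolerance 0.001) for all values but 1 in each vector library. Genes were named from GENCODE release 44 (60261 of 60558 identifiers, 297 unnamed). Promoters came from RefSeq.

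Within a line, log2 ratios had 95% Clopper-Pearson intervals, which cover counting error only. Nothing says that libraries came from more than 1 culture. The fit used genes kept by filterByExpr and a mean-variance trend, and was checked on simulated data. The members and lists were chosen with earlier results of these data known. Every member is accounted for, and values in each library are given for members past -1 in either line, the 3 most and least changed per line, and core snoRNP, PeBoW and RNA polymerase I genes. For other pathway genes the 2 highest and 2 lowest are given. NOL11 is named as the third that passed the fit, and SNU13 as a further box C/D core protein. HEATR1 and NOL11 are given beside WDR43 and UTP15, whose group they belong to. Alternatives were TMM, total reads, size factors over 4 libraries, pseudocounts, filters, thresholds, edgeR, DESeq2 and no block. Versions were limma 3.58.1, DESeq2 1.42.0 and edgeR 4.0.16 under R 4.3.3, with intervals and counts from scipy 1.17.1, pandas 2.3.3 and numpy 2.4.6 under Python 3.11.15.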

Additional observations from a re-analysis of the deposited data

Results flagged for a closer look

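For 4 genes of the wider pathway list the lines moved in opposite directions, with both counting intervals excluding 0. POLR2K, a small subunit shared by the RNA polymerases, was at a log2 fold change of -0.15 in A549 and 0.36 in HCC827 cells. SBDS, which acts in the last steps of large-subunit maturation, was at 0.26 and -0.74. PIH1D1, a cofactor of snoRNP assembly, was at 0.17 and -0.35. EXOSC1, a subunit of the RNA exosome, was at -0.49 and 0.38. With 1 library per condition the difference between lines was not tested. None of the 43 members showed such a pattern.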

How the results depend on the processing

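Leaving out a library was not possible, since it leaves no residual degree of freedom. The labels carry no replicate numbers, so the cell line block was the only pairing. The median of the 43 genes in A549 cells was -0.94 with size factors over 4 libraries, which shift the median of all genes in A549 by 0.10, and -1.02 with TMM or total reads. In HCC827 cells it ranged from -0.92 to -0.83 over the scalings. Of 86 values of single genes, 26 left their counting interval with size factors over 4 libraries, 9 with total reads and 1 with TMM. With total reads, NOP10 in HCC827 cells changed sign to 0.014, inside its counting interval. The count below -1 ranged from 17 to 24 in A549 and from 15 to 16 in HCC827 cells over these scalings. For a mean of at least 500, chosen after seeing the data, it was 22 of 39 in A549 and 15 of 37 in HCC827 cells. Of all genes at that mean, 7.26% in A549 and 9.21% in HCC827 cells were below -1. At -2, the threshold of the study, the counts were 0 in A549 and 0 in HCC827 cells, and the share of all genes below -2 was not counted. At a threshold of -0.5 the counts were 40 in A549 and 37 in HCC827 cells. The lower quartile of all genes that averaged at least 50 normalized counts was -0.47 in A549 and -0.53 in HCC827 cells. The fit called 10 genes lower. With edgeR it called 5 (TMM), or 0 (size factors over 4 libraries), with DESeq2 18, with every gene read at least once in some library 21, and 0 with a pseudocount of 0.1 or without the cell line block, and the cause was not tested. The 10 were among the 18 and among the 21, and 5 of them were the 5 of edgeR. All 43 had a negative estimate in each of these 7 fits. The fits share the same 4 libraries, so their common sign is not an independent check. Over all genes, the fit called 335 lower and 250 higher, edgeR 228 and 196 with TMM and 57 and 42 with size factors over 4 libraries, DESeq2 518 and 621, the fit on every gene read at least once 894 and 1101, and 0 and 0 with a pseudocount of 0.1 or without the block.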
